A study of Homo sapiens with 4 samples.

Results

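The genes described are simple epithelial and hair-type keratins of HaCaT cells: KRT7, KRT8, KRT18, KRT19, KRT80, KRT81, KRT86 and KRT23. They form a named set and were found by symbol in the deposited gene tables. Of the 8 named genes, 7 had a row among the 29209 genes listed in each library, all 7 passed the filter on low counts, and KRT23 is not analysed here. HaCaT is a spontaneously immortalised human keratinocyte line. The libraries were polyA RNA-seq of a HaCaT line made to overexpress TCN1 with a lentivirus (TCN1_OE, n = 2) and of a negative control HaCaT line (NC, n = 2), both harvested from 6-well plates. TCN1 encodes a secreted protein that binds vitamin B12. The sources used here do not give what the control line carries, the promoter that drives TCN1 or the number of clones behind each line. Nothing in the labels places the 2 libraries of a line in separate cultures, so the spread behind the p-values, that between libraries, may be technical only.

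Keratins are the intermediate filament proteins of epithelia. A filament needs a type I and a type II partner in equal amounts, and unpaired keratin is degraded. KRT8 and KRT18 are the partners found in single-layered (simple) epithelia, KRT7 and KRT19 are found in ducts and other simple epithelia, and KRT81 and KRT86 are type II keratins of the hair shaft. Resting interfollicular epidermis relies on other pairs, whereas cultured keratinocytes, HaCaT among them, also express simple keratins. In bulk RNA, fewer cells that express a keratin and less RNA of it per cell cannot be told apart.

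Of the 7 genes, 1 fell and 0 rose in TCN1_OE at an adjusted p under 0.05 in edgeR's quasi-likelihood test, adjusted by Benjamini-Hochberg over all 15113 genes tested. Over all genes tested the same threshold called 0.212% lower and 0.285% higher. The gene that fell was KRT81, to 0.501 of its NC level. KRT18 came next at 0.706 of its NC level and missed the threshold narrowly (adjusted p = 0.0540 in edgeR). At an unadjusted p under 0.05 the count was 2 lower and 0 higher, where 6.81% of all genes tested were lower and 6.00% higher. DESeq2, which gave KRT86 no adjusted p, likewise called 2 lower and 0 higher, against 0.928% and 0.903% of the genes it tested. With limma on log2(FPKM + 0.5), where KRT86 was not tested, the count was 0 in either direction. Among the genes limma tested 0% were lower and 0.00872% higher. The median log2 fold change of the 7 genes was -0.20, against 0.00161 over all genes tested. The deposited FPKM, a level per kilobase of exons and per library total, did not overlap between the lines for 6 of them. It was lower in TCN1_OE for 5, where 21.0% of all genes tested were so placed, and higher for 1, where the share was 21.7%.

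**Figure D1:**
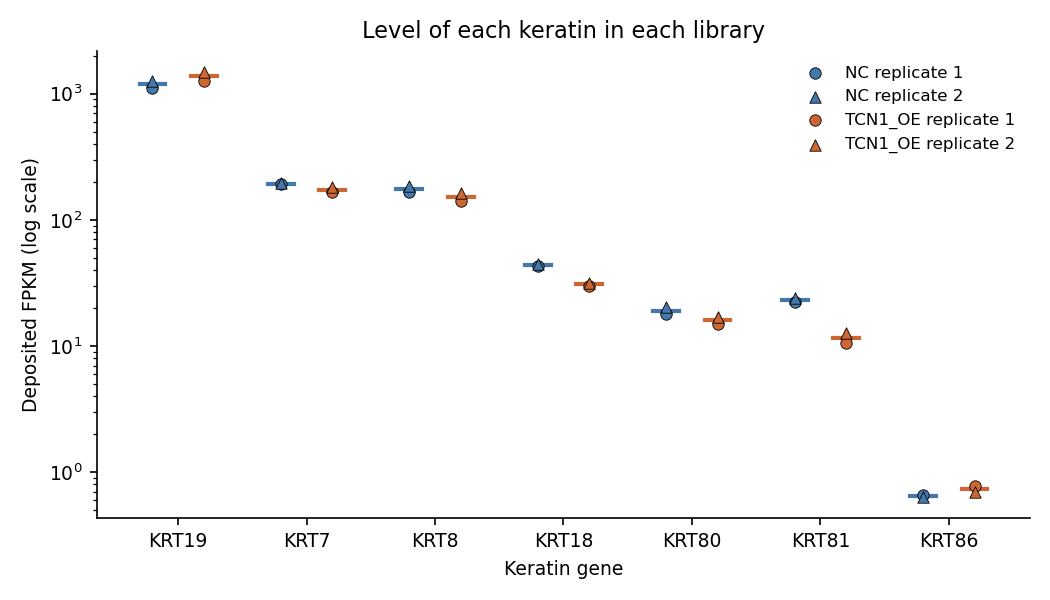
Deposited FPKM (log scale) of each of the 7 keratins in each library; points are single libraries (circles replicate 1, triangles replicate 2) and bars the mean of the 2 libraries of a line. KRT19 stood highest, at 1112 to 1486 FPKM, KRT86 lowest, at 0.641 to 0.771 FPKM, and KRT81 stood above KRT80 in NC and below it in TCN1_OE on this scale.

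KRT81 and KRT86 are close paralogs, so their sequences decide what a count of either one can mean. In GENCODE release 29 on GRCh38, KRT81 lies on chromosome 12 at 52285913 to 52291534 on the minus strand, and KRT86 at 52249300 to 52309163 on the plus strand, so KRT81 sits inside the span of KRT86. None of the 1929 exonic bases of KRT81 lies under an exon of another gene, whereas 8.60% of those of KRT86 do. Their coding sequences were aligned from the main transcripts, and 1368 of 1448 aligned bases were identical (94.5%). The first stretch below opens a run of 605 identical bases, at coding bases 61 to 665 of KRT81, and its first 90 bases are shown because a read from there fits both genes equally well. It is exonic and coding, at chr12:52291316-52291405 (minus strand) in KRT81 and chr12:52301977-52302066 (plus strand) in KRT86. 
KRT81 and KRT86, coding bases 61 to 150: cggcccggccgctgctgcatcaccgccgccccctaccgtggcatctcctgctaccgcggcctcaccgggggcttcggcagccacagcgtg
The second stretch, coding bases 1237 to 1326 of both, is the gap-free window of 90 bases where they differ most, with 19 mismatches in capitals; a read from there identifies its gene. It crosses an exon junction, at chr12:52286447-52287112 (minus strand) in KRT81 and chr12:52306270-52308450 (plus strand) in KRT86.
KRT81: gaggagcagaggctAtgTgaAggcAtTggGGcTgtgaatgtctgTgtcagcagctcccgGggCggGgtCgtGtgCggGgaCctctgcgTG
KRT86: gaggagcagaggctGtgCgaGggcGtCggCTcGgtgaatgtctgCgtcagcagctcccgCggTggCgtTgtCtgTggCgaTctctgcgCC

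**Figure D2:**
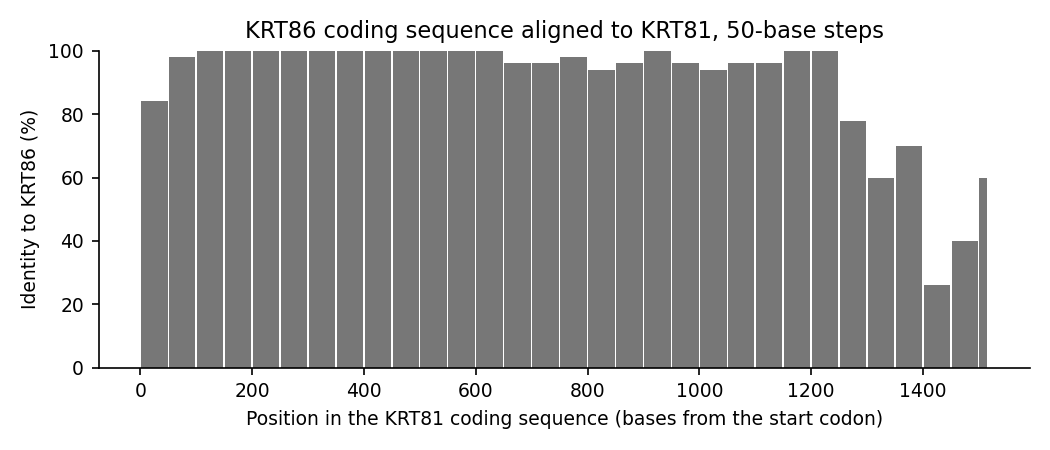
Share of KRT81 coding bases that are identical in the aligned KRT86 coding sequence, in steps of 50 bases from the start codon (a gap counts as not identical). Identity is 100% from the third step to base 650 and falls to 26.0% at bases 1401 to 1450, and most steps between bases 651 and 1150 hold a few mismatches (94% to 98% identity).

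Of the 1830 stretches of 100 bases in the main KRT81 transcript, 30.3% also occur in a transcript of another gene, 538 of them in KRT86 and 17 in the pseudogene KRT87P. For KRT86 the share was 28.3% of 1992. KRT83, the third close paralog, had a coding identity of 93.4% with KRT81 but no 100-base stretch in common with another gene, and it held 3, 0, 0 and 0 counts in NC replicate 1, NC replicate 2, TCN1_OE replicate 1 and TCN1_OE replicate 2. The sources used here do not say how reads that fit more than 1 place were counted. If they were dropped, KRT81 and KRT86 counts come from the remaining bases and both levels are understated.

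KRT81, which builds filaments of the hair cortex, was counted 865 and 535 times in NC and 336 and 363 times in TCN1_OE. These counts correspond to 22.5 and 23.9 FPKM in NC and 10.5 and 12.8 FPKM in TCN1_OE. Both TCN1_OE libraries lay well below both NC libraries. The means were 23.2 ± 1.04 FPKM in NC and 11.6 ± 1.59 FPKM in TCN1_OE (SD, n = 2 each), with a log2 fold change of -0.999 ± 0.137 (SE), a 95% interval from -1.30 to -0.69 and an edgeR adjusted p of 0.0208. KRT81 ranked 21 by p among all genes tested. It lost its call with limma on log2(FPKM + 0.5), at an adjusted p of 0.116 and a log2 fold change of -0.97. Over the 13 alternatives without a replicate term the adjusted p ran from 6.9e-10 to 0.124.

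KRT86, the other hair-shaft keratin of the set, was counted 32 and 18 times in NC and 31 and 25 times in TCN1_OE. Its levels were 0.661 and 0.641 FPKM in NC and 0.771 and 0.699 FPKM in TCN1_OE, so both TCN1_OE values were the higher ones. The distance between the lines was small beside the error of such low counts, with a log2 fold change of 0.17 ± 0.36, a 95% interval from -0.63 to 0.97 and an edgeR adjusted p of 0.890. At the length of KRT86, 3 counts correspond to between 0.0620 and 0.107 FPKM in these libraries, and such floors cover counting error only.

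KRT81 counts exceeded KRT86 counts 27.0-fold and 29.7-fold in NC and 10.8-fold and 14.5-fold in TCN1_OE. A changed split of shared reads between the paralogs was therefore checked by adding the counts of KRT81, KRT83 and KRT86 into a single gene, a sum that does not depend on the split. The sum gave -0.94 on the log2 scale and an edgeR adjusted p of 0.0244, close to the value of KRT81 alone. The lower KRT81 counts were thus not matched by higher counts of the other 2 genes. KRT81 held 865 of 900 and 535 of 553 summed counts in NC, and 336 of 367 and 363 of 388 in TCN1_OE. The sum therefore mostly follows KRT81, and reads dropped for fitting more than 1 place do not enter it.

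KRT80, a type II keratin known from many epithelia and from filaments near desmosomes, lies near KRT7 on chromosome 12, at 52168996 to 52192000, and shares no exonic base or 100-base stretch with another gene. It stood at 17.97 and 20.2 FPKM in NC and 15.0 and 17.0 FPKM in TCN1_OE, without overlap between the lines but with a gap of less than 1 FPKM. Its log2 fold change was -0.25 ± 0.12, with a 95% interval from -0.51 to 0.0049 and an edgeR adjusted p of 0.400. The KRT81 to KRT80 ratio of FPKM was 1.25 and 1.18 in NC and 0.698 and 0.749 in TCN1_OE, so it was lower in both TCN1_OE libraries. The level of the ratio depends on how shared reads were counted. As an alternative chosen after seeing the data, each FPKM was divided by the part of its gene's 100-base stretches that no other gene shares. That gave 1.79 and 1.70 in NC and 1.00 and 1.08 in TCN1_OE, so KRT81 was no longer below KRT80 there. The division multiplies the ratio by the same factor in every library, so its direction between the lines could not change. The exact two-sided permutation p of either ratio was 0.33, the smallest that 2 libraries against 2 can give.

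KRT18, the type I partner of KRT8, was counted 2619 and 1582 times in NC and 1533 and 1425 times in TCN1_OE, or 42.7 and 44.5 against 30.1 and 31.5 FPKM. The lines did not overlap, and the libraries of each line differed by less than 2 FPKM. The log2 fold change was -0.50 ± 0.09, with a 95% interval from -0.71 to -0.30 and an edgeR adjusted p of 0.0540, or rank 90 among all genes tested. Whether KRT18 passed depended on the settings. With DESeq2 the adjusted p was 0.0061, with upper quartile scaling in edgeR 0.0474, and with limma on log2(FPKM + 0.5) 0.181. Leaving out NC replicate 1 or 2 gave a log2 fold change of -0.54 or -0.47. Leaving out TCN1_OE replicate 1 or 2 gave -0.47 or -0.55. Over the 14 alternatives without a replicate term the adjusted p ran from 4.3e-04 to 0.182 and the log2 fold change from -0.55 to -0.47.

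KRT8, the type II partner, moved less. It stood at 164.8 and 184.7 FPKM in NC and 141.8 and 163.2 FPKM in TCN1_OE, so the highest TCN1_OE library nearly reached the lowest NC library. The log2 fold change was -0.20 ± 0.10, with a 95% interval from -0.43 to 0.0276 and an edgeR adjusted p of 0.451. The KRT8 to KRT18 ratio of FPKM was 3.86 and 4.15 in NC and 4.71 and 5.19 in TCN1_OE, higher in both TCN1_OE libraries, with means of 4.01 ± 0.21 and 4.95 ± 0.34 (SD, n = 2 each). The exact two-sided permutation p was again 0.33, the smallest possible.

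The size of that ratio depends on gene length. The deposited FPKM divides KRT8 by 6881 bases and KRT18 by 3069 bases, where the exons of all their transcripts sum to 6881 and 3218 bases in GENCODE release 29 and the main transcripts are 1882 and 1562 bases long. Per kilobase of the main transcript, the ratio was 7.18 and 7.73 in NC and 8.76 and 9.65 in TCN1_OE. This alternative was chosen after seeing the data. It multiplies the ratio by the same factor in every library, so the direction and fold between the lines could not change. KRT8 and KRT18 are neighbours on opposite strands of chromosome 12, at 52897187 to 52949954 and 52948871 to 52952901. Exons of both cover 525 bases, 16.3% of the exonic bases of KRT18 and 7.63% of those of KRT8. The library kit does not mark strand, so reads from these bases cannot be assigned to either gene.

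**Figure D3:**
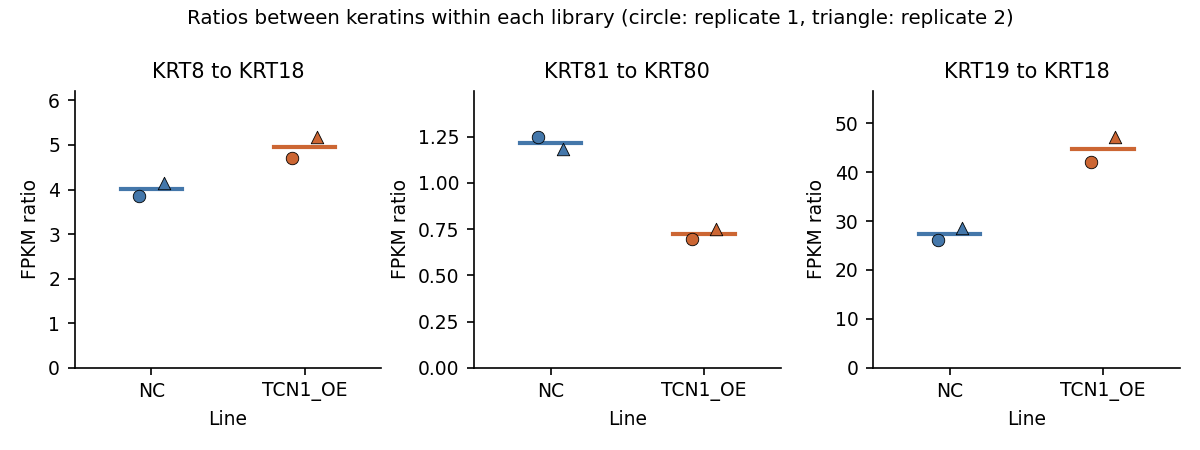
Ratio of deposited FPKM between named keratins in each library (points) with the mean of each line (bars), on axes that start at 0. The KRT8 to KRT18 and KRT19 to KRT18 ratios were higher in both TCN1_OE libraries than in both NC libraries, and the KRT81 to KRT80 ratio was lower.

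Processed pseudogenes of KRT8 and KRT18 added little. The 17 listed KRT8 pseudogenes together held between 0.638% and 0.995% of the KRT8 count in a library, and the 17 listed KRT18 pseudogenes between 1.34% and 3.196% of the KRT18 count. Of the 100-base stretches of KRT8, 6.73% also occur in another gene, most of them in KRT8P3 (71 of 1783), while KRT18 has no such stretch. Summed with their pseudogenes, KRT8 had a log2 fold change of -0.20 and KRT18 of -0.49, with edgeR adjusted p of 0.454 and 0.0551. Of these pseudogenes, 8 of KRT8 and 4 of KRT18 had at least 10 counts in all, and 4 passed the filter. KRT8P12, the most abundant, was counted 62 and 32 times in NC and 52 and 41 times in TCN1_OE, with a log2 fold change of 0.0024 ± 0.28. KRT8P3, KRT8P33 and KRT8P39 stood at 0.23 ± 0.33, 0.34 ± 0.47 and -1.16 ± 0.64, and edgeR called 0 of the 4, also at an unadjusted p under 0.05, and DESeq2 and limma called 0 where they gave an adjusted p.

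KRT19, a type I keratin of ducts that lacks the usual tail domain, was the most abundant of the set. It lies on chromosome 17 at 41523617 to 41528308, with no exonic overlap and no 100-base stretch in another gene. Its FPKM was 1112 and 1269 in NC and 1269 and 1486 in TCN1_OE, so NC replicate 2 and TCN1_OE replicate 1 stood at the same level and the lines overlapped. The log2 fold change was 0.21 ± 0.11, with a 95% interval from -0.03 to 0.44 and an edgeR adjusted p of 0.455. KRT19 was the third most abundant of 38 listed keratin genes, with 11.4% of their summed FPKM, after the basal partners KRT14 (29.4%) and KRT5 (19.8%).

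KRT7, a type II keratin of ducts and a usual partner of KRT19, stood at 191.2 and 195.5 FPKM in NC and 165.0 and 182.3 FPKM in TCN1_OE. Both TCN1_OE libraries were below both NC libraries, and the spread within TCN1_OE was wider than the gap between the lines. The log2 fold change was -0.16 ± 0.09, with a 95% interval from -0.35 to 0.0386 and an edgeR adjusted p of 0.495. The ratio of KRT7 to KRT19 FPKM was 0.172 and 0.154 in NC and 0.1301 and 0.123 in TCN1_OE. The antisense gene KRT7-AS, which covers 282 exonic bases of KRT7, held 173 and 81 counts in NC and 103 and 104 in TCN1_OE, few beside the 9065 to 15270 counts of KRT7. Its log2 fold change was -0.25 ± 0.21.

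**Figure D4:**
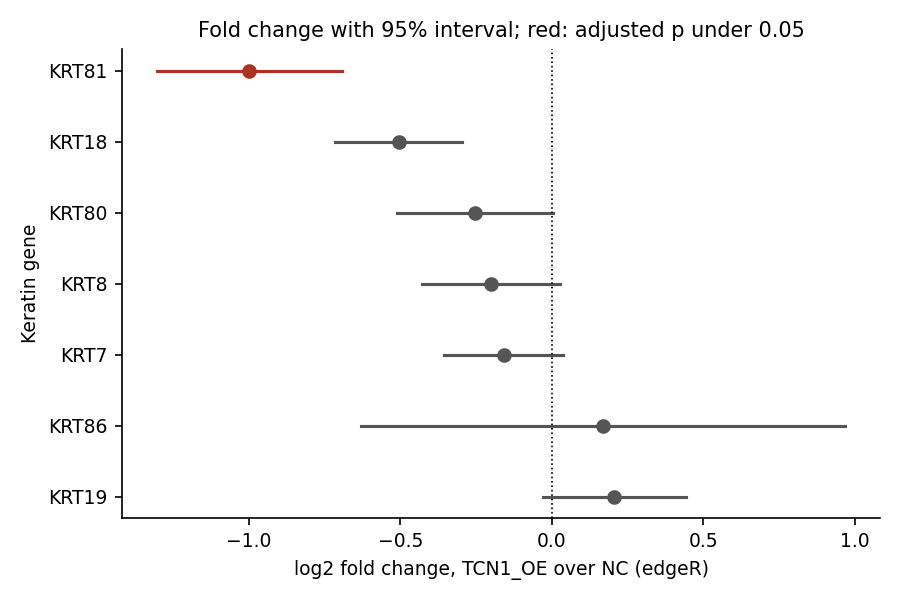
Log2 fold change of TCN1_OE over NC from edgeR (points) with its 95% interval (lines) for the 7 keratins. The interval of KRT81, from -1.30 to -0.69, lies below 0, as does that of KRT18, but only KRT81 (red) passed after adjustment over all genes tested.

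By deposited FPKM the order of mean levels in NC was KRT19, KRT7, KRT8, KRT18, KRT81, KRT80 and KRT86. In TCN1_OE it was the same apart from KRT80 and KRT81. KRT7 and KRT8 were neighbours with close levels, and KRT8 in NC replicate 2 (184.7 FPKM) was above KRT7 in both TCN1_OE libraries. Within each library KRT7 was the higher, by 1.06-fold to 1.16-fold. Per kilobase of the main transcript this order turned, with a KRT7 to KRT8 ratio between 0.660 and 0.726, so these data do not fix which of the pair is more abundant. Which of KRT80 and KRT81 is the more abundant in TCN1_OE is not fixed either, since their FPKM order there depends on the shared reads of KRT81.

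Within the summed FPKM of the 7 genes, KRT19 made up 71.7% and 73.0% in NC and 77.7% and 78.5% in TCN1_OE. KRT18 made up 2.75% and 2.56% in NC and 1.85% and 1.66% in TCN1_OE. The size of these shares depends on gene length. The deposited lengths were 6881 bases for KRT8 and 2336 for KRT19, against main transcripts of 1882 and 1390 bases. The ratio of KRT19 to KRT18 was 26.0 and 28.5 in NC and 42.1 and 47.2 in TCN1_OE. The 7 genes together took 15.5% and 15.7% of the summed FPKM of all 38 listed keratins in NC and 14.5% and 15.0% in TCN1_OE, a difference of -0.78 percentage points with an exact two-sided permutation p of 0.33, the smallest possible.

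Replicate number moved with these levels as well. KRT7, KRT8, KRT18, KRT19, KRT80 and KRT81 had a higher FPKM in replicate 2 than in replicate 1 of both lines, 6 of 7 genes, while KRT86 was lower in replicate 2 of both. Among all genes tested 30.4% were higher in replicate 2 of both lines, and among the 4215 averaging 10 FPKM or more 38.2% were. The step from replicate 1 to replicate 2 was 1.14-fold in NC and 1.17-fold in TCN1_OE for KRT19, and 1.12-fold and 1.151-fold for KRT8. For both genes it was of similar size to the difference between the lines, 1.16-fold for KRT19 and 0.873-fold for KRT8.

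The remaining keratins were read from lists of 23 epidermal and mucosal and 24 other hair and root sheath keratins. Of 15 epidermal and mucosal keratins tested, 4 rose and 0 fell at an edgeR adjusted p under 0.05. Among all genes tested 0.285% rose and 0.212% fell. With an unadjusted p under 0.05, 8 were higher and 0 lower (6.00% and 6.81% of all genes tested). DESeq2 called 5 higher and 0 lower (0.903% and 0.928% of the genes it tested). With limma on log2(FPKM + 0.5) the count was 0 in either direction (0.00872% higher and 0% lower among the genes it tested). The median log2 fold change of the 15 keratins was 0.41. The suprabasal partners KRT10 and KRT1 rose by 0.84 ± 0.08 and 0.77 ± 0.08 on the log2 scale, and the mucosal partners KRT13 and KRT4 by 0.55 ± 0.09 and 0.52 ± 0.08. KRT10 stood at 137.5 and 134.2 FPKM in NC and 245.1 and 244.0 FPKM in TCN1_OE, so its libraries differed between lines far more than within them. The abundant keratins of the basal layer and of stressed epidermis did not pass: KRT14, KRT5, KRT15, KRT6A and KRT17 stood at 0.04, 0.13, 0.50, -0.12 and -0.17 on the log2 scale, with edgeR adjusted p of 0.921, 0.590, 0.0540, 0.736 and 0.554.

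**Figure D5:**
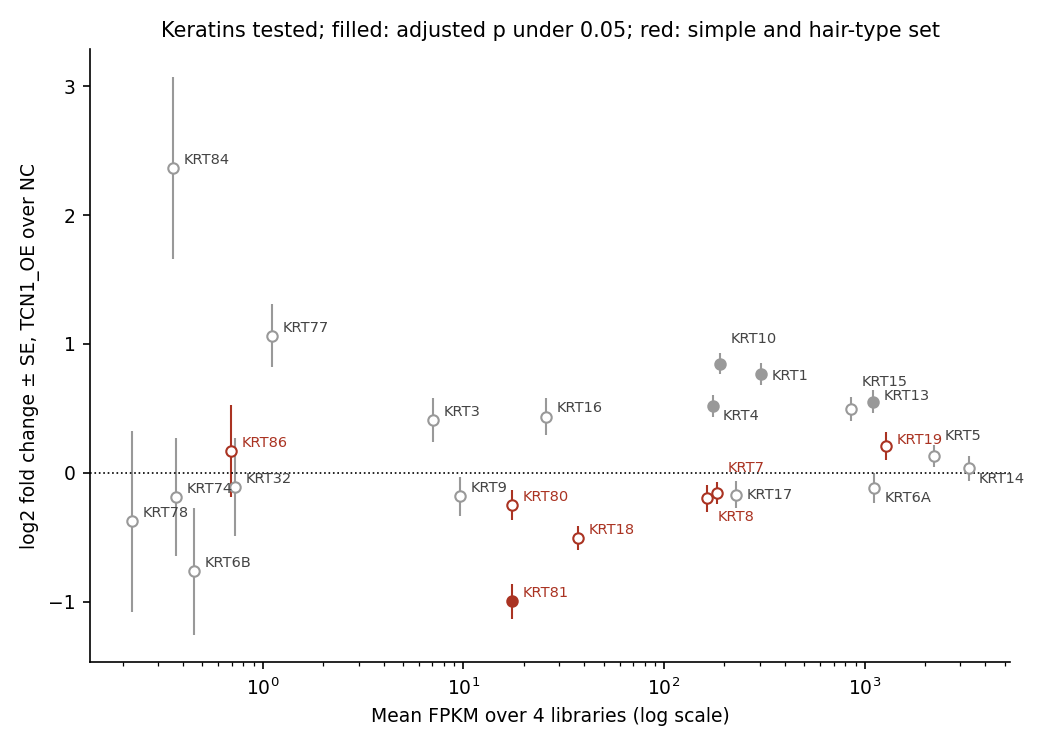
Log2 fold change ± SE against mean FPKM over the 4 libraries (log scale) for the keratins tested; red marks the simple and hair-type set and filled points an edgeR adjusted p under 0.05. KRT81 is the filled red point at -0.999, and the other filled points are KRT10, KRT1, KRT13 and KRT4.

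Of the other hair and root sheath keratins, 11 of 24 had a row and 3 were tested. In edgeR 0 of these passed in either direction, and DESeq2 and limma called 0. With an unadjusted p under 0.05, 1 was higher and 0 lower, against 6.00% and 6.81% of all genes tested. That 1 was KRT84, a hair keratin of type II, counted 2 and 5 times in NC and 17 and 21 times in TCN1_OE. It stood at 2.36 ± 0.71 on the log2 scale (edgeR adjusted p = 0.195), and its highest level was 0.680 FPKM. KRT74 and KRT32 stood at -0.19 ± 0.46 and -0.11 ± 0.38. Among KRT81, KRT86 and these 11, KRT81 was the only gene above 1 FPKM in any library.

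Of 20 tested regulators of simple epithelial keratins, mostly AP-1, ETS, KLF, AP-2 and grainyhead factors, 0 passed in edgeR. With an unadjusted p under 0.05, 4 were higher and 2 lower, against 6.00% and 6.81% of all genes tested. DESeq2 called 1 higher and 1 lower, against 0.903% and 0.928% of the genes it tested. The AP-1 subunit FOSL1 stood at 10.0 and 11.1 FPKM in NC and 4.54 and 6.07 FPKM in TCN1_OE, a log2 fold change of -0.99 ± 0.19 (edgeR adjusted p = 0.0568). The ETS factor ELF3 stood at 0.48 ± 0.11, and the AP-1 subunits JUND and FOS at 0.49 ± 0.17 and 0.52 ± 0.19. Of 8 tested regulators of hair keratins 0 passed in edgeR and 0 with DESeq2 or limma. At an unadjusted p under 0.05 the count was 1 higher and 0 lower, where 6.00% and 6.81% of all genes tested were so placed. The log2 fold change was above 0 for 7 of the 8 and below 0 for 1. MSX2, DLX3, HOXC13 and FOXN1, transcription factors of the hair matrix and shaft, stood at 0.47 ± 0.15, 0.24 ± 0.12, 0.20 ± 0.12 and 0.22 ± 0.16. HOXC13 was expressed at 31.8 and 29.8 FPKM in NC and 32.5 and 38.5 FPKM in TCN1_OE.

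In a list drawn up for cytolinkers and other binding partners of keratins, edgeR called 1 of 20 tested lower and 0 higher. Over all genes tested it called 0.212% lower and 0.285% higher. The 1 called was TCOF1, at -0.55 ± 0.09 (edgeR adjusted p = 0.0475), which is known for ribosomal RNA transcription in the nucleolus and not as a keratin binder, so no known binding partner in the list passed. The chaperone HSPB1 and the plakin DST stood at 0.38 ± 0.12 and 0.27 ± 0.09 and the desmosomal plaque gene PKP2 at -0.31 ± 0.11. Of 9 other intermediate filament genes tested, 1 was lower and 0 were higher: the neurofilament gene NEFL, with 23.5 and 22.4 FPKM in NC and 14.57 and 14.02 FPKM in TCN1_OE. With an unadjusted p under 0.05 in edgeR, 3 were lower and 0 higher, against 6.81% and 6.00% of all genes tested. The lamins LMNB1 and LMNB2 stood at -0.21 ± 0.08 and -0.22 ± 0.12, and synemin SYNM at -0.48 ± 0.21. Of 10 further markers of simple epithelium tested, 0 passed in edgeR. With an unadjusted p under 0.05, 2 were higher and 0 lower, against 6.00% and 6.81% of all genes tested. DESeq2 gave the same count, against 0.903% and 0.928% of the genes it tested. AGR2, a secretory-epithelium disulfide isomerase, stood at 10.9 and 8.11 FPKM in NC and 19.4 and 15.8 FPKM in TCN1_OE (edgeR adjusted p = 0.0538), and MUC1 and ESRP2 stood at 0.27 ± 0.12 and 0.21 ± 0.11.

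The genes most like KRT81 across the 4 libraries were ranked by the distance between their log2 CPM values, each centred on its mean, among 6687 genes averaging 5 FPKM or more. FOSL1 was nearest, at a distance of 0.102, followed by the activin antagonist FST at 0.207 and the ribosome assembly gene URB2 at 0.211. FST stood at -0.97 ± 0.13 on the log2 scale, from 12.7 and 12.3 FPKM in NC to 6.33 and 6.45 FPKM in TCN1_OE, and URB2 stood at -0.80 ± 0.13. With 4 libraries many genes share such a pattern, and the ranking is a description.

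The libraries held 11593377 to 19973550 counts. TCN1 stood at 1.67 and 0.978 FPKM in NC and 68.3 and 56.6 FPKM in TCN1_OE, the direction of the labels, with a log2 fold change of 5.48 ± 0.20. Keratinocyte markers were strong, with all 9 listed and a summed level of 6775 and 7366 FPKM in NC and 7076 and 7860 FPKM in TCN1_OE. Merkel cells, the skin cells known for KRT8, KRT18 and KRT20, had 5 of 8 markers listed, with a sum of 18.2 to 19.2 FPKM in NC and 19.1 to 19.6 FPKM in TCN1_OE. Of that sum SOX2 alone gave 16.3 to 18.2 FPKM, while SYP and ISL1 were near 1 FPKM and PIEZO2 and INSM1 at or near 0. Melanocyte, fibroblast, endothelial and leukocyte marker sums stayed below 3.1 FPKM in every library. Of the 10 hair shaft markers 3 were listed, and their sums, 34.1 and 32.2 FPKM in NC and 35.2 and 41.1 FPKM in TCN1_OE, came mostly from HOXC13. The 2 listed markers of eccrine or luminal glands, KRT77 and SCGB1D2, summed to 0.761 and 0.666 FPKM in NC and 2.09 and 1.74 FPKM in TCN1_OE.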

How the data were processed

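PolyA RNA of 4 HaCaT libraries (2 NC, 2 TCN1_OE; groups and replicate numbers from the sample titles) was sequenced from unstranded NEBNext Ultra libraries, per the labels' protocols. The authors aligned reads with HISAT2 and counted them per gene with HTSeq 0.13.5 on GRCh38, per the submitters' processing notes. The annotation release, the strand setting of the counting and the handling of multi-mapped reads were not given in the sources used here. Per gene, the deposited files hold a raw count and an FPKM value, per the file headers. Dividing count by FPKM and library total gave a whole gene length for 100% of values above 0 (tolerance 0.001 bases). For 3 of the 7 keratins this length equals the exonic length in GENCODE release 29, which was used for positions, overlaps and sequences; no protein sequences were used here.

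All genes were fitted with edgeR 4.0.16 (quasi-likelihood, robust, TMM, filterByExpr with a minimum count of 10) in R 4.3.3, with group as the only term. The standard error is the log2 fold change divided by the square root of F, and the 95% interval uses the t distribution with the fit's degrees of freedom. Alternatives used DESeq2 1.42.0, limma 3.58.1 on log2(FPKM + pseudocount), other scalings and filters, a replicate term and each library left out. On simulated counts (dispersion 0.02) for these 2 lines over 15113 genes, edgeR found 13 of 67 genes with a 1.5-fold change, 47 of 67 with 2-fold and 61 of 66 with 4-fold, and made 8 false calls. That dispersion was set alike for every gene and was not estimated from these libraries. The simulated counts therefore do not give the detection rate in the real data. The chi-square per degree of freedom between libraries of a line was 8.40 in NC and 8.54 in TCN1_OE, so no library repeats another within counting noise.

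The keratins and all lists were chosen with earlier results of these data known. The genes named were TCN1, the set itself, up to 4 genes per list with the smallest edgeR adjusted p, keratins with at least 1% of the summed keratin FPKM, pseudogenes and antisense genes of the set with at least 10 counts (those that could not be tested are counted only), and the 3 genes most like KRT81. KRT83, KRT77, SCGB1D2, PIEZO2 and INSM1 were named outside this rule, after their values were seen.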

Additional observations from a re-analysis of the deposited data

How the results depend on the processing

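No alternative run turned the direction of any of the 7 keratins. KRT81 and its sum with KRT83 and KRT86 lost their calls in limma alone: with pseudocounts of 0.5, 0.1 and 1 KRT81 stood at -0.97, -0.996 and -0.94 and the sum at -0.93, -0.95 and -0.90. KRT18 gained a call with no scaling beyond library totals (-0.50), upper quartile scaling (-0.48), no filter on low counts (-0.52) and DESeq2 (-0.50), and lay between -0.55 and -0.47 with 1 library left out. KRT81 stayed called with any 1 library left out, between -1.16 and -0.86. 

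The set had 2 members called lower with no scaling, upper quartile scaling, no filter and DESeq2, 0 with limma at each pseudocount, and 1 to 2 with 1 library left out. Over all genes, higher and lower calls were 69 and 64 with no scaling, 78 and 53 with upper quartile scaling, 200 and 275 with no filter, 110 and 113 with DESeq2, 1 and 0 with limma at each pseudocount, and 104 to 188 and 106 to 142 with 1 library left out. With genes of at least 1 FPKM 14 were lower. 

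With the replicate block in edgeR, 1216 of 15113 genes tested were higher and 1655 lower. The set had 1 higher, KRT19 at 0.21. It had 5 lower: KRT7 at -0.16, KRT8 at -0.20, KRT18 at -0.51, KRT80 at -0.26 and KRT81 at -1.01. Differences between replicates 1 and 2 correlated between the lines at 0.15 over genes, but nothing in the labels says that a number marks a shared batch, so the libraries share only a number. 

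In CPM in place of FPKM the set's share of the keratin total differed by -1.50 percentage points and the KRT8 to KRT18 ratio by 2.11; per main transcript length, chosen after seeing the data, the ratio differed by 1.75, against 0.94 in FPKM. The KRT81 to KRT80 ratio differed by -0.49 in FPKM and by -0.71 with shared 100-base stretches taken out, also chosen after seeing the data. For both ratios, each of these changes multiplies all libraries by the same factor. The size of the difference moves with that factor, while the fold between the lines stays the same. KRT19 could not be summed with pseudogenes, as no such row was used here, and KRT86 could not be fitted with DESeq2's independent filtering, limma or the filter at 1 FPKM. The counts of KRT86 limit what could be detected there.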
